A study of Homo sapiens with 12 samples.

Results

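The G1 cyclins and cyclin-dependent kinase (CDK) inhibitors examined here are 10 genes, namely the D-type cyclin genes CCND1, CCND2 and CCND3, the E-type cyclin genes CCNE1 and CCNE2, the CIP/KIP inhibitor genes CDKN1A, CDKN1B and CDKN1C, and the INK4 inhibitor genes CDKN2C and CDKN2D. They were chosen by symbol, each matched 1 row of a table of 70116 genes, and all 10 passed the filter on low counts that 16197 genes passed. The RNA came from MiaPaCa-2 cells, a line grown from a human pancreatic carcinoma, transfected with a small interfering RNA (siRNA) in 4 groups of 3 libraries. The groups were siControl (a control siRNA), siSLC25A1 (against the mitochondrial citrate carrier), siACLY (against ATP citrate lyase, which makes cytosolic acetyl-CoA from citrate) and siACO1 (against cytosolic aconitase, which converts citrate to isocitrate). All groups shared the same cell line and a transfection step, and the labels give no second treatment, time after transfection or siRNA sequence. The title of the series asks about cytosolic citrate and ferroptosis, a form of cell death by lipid peroxidation, under nutrient stress. The labels do not say whether the 3 replicates of a group were separate cultures, so p-values measure the spread between these libraries, which may be technical.

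A cell decides in G1 whether to copy its DNA. D-type cyclins activate CDK4 and CDK6, and E-type cyclins activate CDK2; these kinases phosphorylate the retinoblastoma protein RB, which then releases E2F factors to transcribe genes for DNA replication. INK4 proteins bind CDK4 and CDK6 and keep D-type cyclins away, whereas CIP/KIP proteins bind cyclin-CDK complexes more broadly and block CDK2 in particular. Cyclin D1 is a classical output of growth factor signalling, CDKN1A (p21) is induced by many kinds of stress, and CDKN1B (p27) accumulates in quiescent cells, largely by slower protein breakdown. MiaPaCa-2 is known for deletion of CDKN2A, as is common in pancreatic ductal adenocarcinoma.

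Library totals ran from 24159424 to 43792811 counts. Pearson correlations of log2 CPM, the counts scaled to a common library size, between replicates ran from 0.989 to 0.992 across genes. Replicate 3 of siACO1 stood apart, with a chi-square per degree of freedom of 10.7 and 11.3 against 2.24 for the group's other pair. For replicate 1 of siSLC25A1 this measure was 5.37 and 4.31, against 2.94 for the other pair of its group. The targeted transcripts matched the labels, since on the log2 scale SLC25A1 fell by 3.51, ACLY fell by 3.79 and ACO1 fell by 4.74 in their own knockdowns. The summed level of KRT8, KRT18, KRT19 and VIM, which mark this line, was 7221 to 7265 CPM in siControl, 6940 to 7341 in siSLC25A1, 8088 to 8728 in siACLY and 5538 to 6017 in siACO1. The genes in this sum moved apart. Between siControl and siACO1 mean KRT8 went from 2276 to 1279 CPM, KRT18 from 1324 to 773 and KRT19 from 88.4 to 52.0. In siSLC25A1 mean KRT8 was at 2009 CPM, KRT18 at 1150 and KRT19 at 121, and in siACLY they were at 2412, 1314 and 141. VIM was at 3558 CPM in siControl, 3840 in siSLC25A1, 3615 in siACO1 and 4555 in siACLY. The acinar markers (3 of 3) and 2 of 4 leukocyte markers were at 0 counts, and the leukocyte and endothelial sums reached at most 0.965 and 0.426 CPM. Of 4 fibroblast markers LUM was at 0 and DCN and COL1A1 were near 0, while COL1A2 carried a sum of 874 to 894 CPM in siControl, 783 to 844 in siSLC25A1, 825 to 875 in siACLY and 1545 to 1591 in siACO1; the part of these markers in the results was not tested.

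The promoters of 5 members whose transcripts changed are shown first, since transcript levels were what was measured. RefSeq promoter windows (GRCh38.p14, 250 bases before to 50 bases after a transcript start, written 5′ to 3′ on the strand of the gene) were held for 6 of the 10 members, and CCND1, CCND2, CCNE2 and CDKN1C are named only. Capitals mark every match on either strand to 4 motifs, the GC box GGGCGG, the CCAAT box CCAAT, the E2F letters TTCCCGC or TTGGCGC, and the E box CACGTG. CDKN1A is shown for the largest change among the members, CDKN1B, CDKN2C and CDKN2D because they rose together in siACO1, and CCNE1 because it fell there. Windows were also held for CCND3, which rose in siACO1 too, but they are not shown.
CDKN1A (chr6:36678464-36678763, plus strand): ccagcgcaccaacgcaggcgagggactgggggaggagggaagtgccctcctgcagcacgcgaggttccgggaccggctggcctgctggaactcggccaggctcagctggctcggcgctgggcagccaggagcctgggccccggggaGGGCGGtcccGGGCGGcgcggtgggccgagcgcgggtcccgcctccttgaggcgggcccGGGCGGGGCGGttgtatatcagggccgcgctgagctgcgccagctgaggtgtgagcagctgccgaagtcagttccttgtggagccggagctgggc
CDKN1B (chr12:12717118-12717417, plus strand): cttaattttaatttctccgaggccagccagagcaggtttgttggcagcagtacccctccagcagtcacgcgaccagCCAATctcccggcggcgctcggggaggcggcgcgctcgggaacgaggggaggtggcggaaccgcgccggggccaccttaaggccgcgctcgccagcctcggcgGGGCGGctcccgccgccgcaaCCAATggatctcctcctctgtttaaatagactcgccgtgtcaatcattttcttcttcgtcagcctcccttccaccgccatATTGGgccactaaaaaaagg
CDKN2C (chr1:50968456-50968755, plus strand): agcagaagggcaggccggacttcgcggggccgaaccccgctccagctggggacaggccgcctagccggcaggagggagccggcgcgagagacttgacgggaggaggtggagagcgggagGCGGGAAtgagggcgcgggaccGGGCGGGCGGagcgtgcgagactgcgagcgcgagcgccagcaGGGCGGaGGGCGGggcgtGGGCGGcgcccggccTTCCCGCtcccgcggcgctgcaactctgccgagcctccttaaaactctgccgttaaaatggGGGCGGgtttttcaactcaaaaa
CDKN2D (chr19:10568930-10569229, minus strand): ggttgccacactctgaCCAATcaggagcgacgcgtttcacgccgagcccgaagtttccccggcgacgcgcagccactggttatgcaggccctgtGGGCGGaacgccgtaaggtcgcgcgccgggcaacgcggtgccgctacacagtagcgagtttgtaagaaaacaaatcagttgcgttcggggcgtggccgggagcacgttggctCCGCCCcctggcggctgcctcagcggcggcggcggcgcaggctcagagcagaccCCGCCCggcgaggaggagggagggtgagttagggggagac
CCNE1 (chr19:29811741-29812040, plus strand): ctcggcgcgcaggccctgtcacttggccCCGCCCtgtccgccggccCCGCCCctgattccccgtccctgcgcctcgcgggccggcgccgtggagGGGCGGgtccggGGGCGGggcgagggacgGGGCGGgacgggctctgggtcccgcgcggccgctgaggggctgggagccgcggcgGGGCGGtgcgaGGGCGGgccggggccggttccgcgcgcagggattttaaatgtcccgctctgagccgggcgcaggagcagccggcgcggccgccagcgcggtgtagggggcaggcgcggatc

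The 5 windows differed in their motifs. The window of CDKN1A held 4 GC boxes, that of CCNE1 held 7, that of CDKN2D held 3 and that of CDKN1B held 1, and 45.0% of 35116 windows of 300 bases held at least 1 GC box. CDKN1B also held 3 CCAAT boxes and CDKN2D held 1, a motif found in 34.6% of windows. The window of CDKN2C shown here held 6 GC boxes and 2 matches to the E2F letters, which 9.23% of windows held; it was picked from 3 windows of this gene after the matches were seen, and the other two held no match to the E2F letters. An E box, held by 7.26% of windows, was in both of those other windows of CDKN2C and in no window of another member. The windows of CCNE1, CDKN1A, CDKN1B and CDKN2D held no match to the E2F letters. Matches to 1 motif can overlap each other. These matches describe letters in the windows, and no binding was measured.

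Levels of different genes were compared as TMM-scaled CPM per kilobase of exon, where TMM is a scaling of library totals and the exon length is the union of exons in GENCODE release 29. In siControl CCND1 stood highest at 66.1 ± 1.33 (SD, n = 3), followed by CDKN1B at 34.0 ± 1.63, CCNE1 at 15.3 ± 0.236, CDKN2C at 12.5 ± 0.646, CCND3 at 10.3 ± 0.188 and CDKN2D at 7.46 ± 0.418 CPM per kilobase. CCNE2 lay lower at 1.90 ± 0.319, CDKN1A at 0.415 ± 0.0802, CDKN1C at 0.187 ± 0.0365 and CCND2 at 0.0390 ± 0.0176 CPM per kilobase. No neighbours in this order overlapped between libraries of siControl. The D-type, E-type and CIP/KIP families each had 1 leading transcript. CCND1 made 86.1% to 86.9% of the D-type sum per length in the siControl libraries, CCNE1 86.9% to 90.3% of the E-type sum, and CDKN1B 98.0% to 98.7% of the CIP/KIP sum. The INK4 sum was more even, with CDKN2C at 59.7% to 64.1%. CDKN1A made 0.913% to 1.38% of the CIP/KIP sum in siControl.

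**Figure D1:**
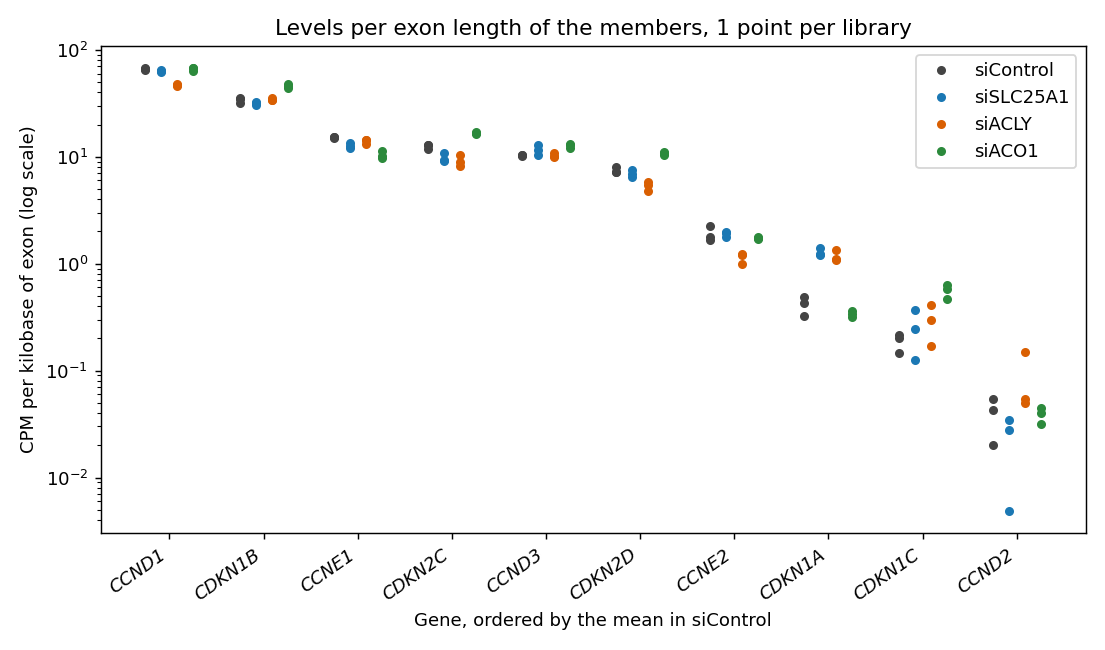
Level of each gene as TMM-scaled CPM per kilobase of exon on a log axis, 1 point per library and 1 colour per siRNA group, ordered by the mean in siControl. CCND1 was highest and CCND2 lowest in every group; CCNE1 was the third highest in siControl and the sixth in siACO1.

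The order changed little at the extremes and more in the middle. CCND1, CDKN1B and CCND2 kept ranks 1, 2 and 10 in all 4 groups. CCNE1 moved from rank 3 in siControl to rank 6 in siACO1, where CDKN2C took rank 3 at 16.7 ± 0.381 CPM per kilobase. In siACO1 CCNE1 (9.76 to 11.3) and CDKN2D (10.5 to 11.2) overlapped, so their order is not resolved. CDKN1A rose from rank 8 in siControl to rank 7 in siACLY, where its libraries (1.09 to 1.35 CPM per kilobase) overlapped those of CCNE2 (0.990 to 1.23), and it fell to rank 9 in siACO1, below CDKN1C.

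Each knockdown was then compared with siControl, and calls were made at an adjusted p under 0.05 over all 16197 tested genes. In siSLC25A1 4 of the 10 members were called, CDKN1A and CCND3 higher and CCNE1 and CDKN2C lower, where 19.6% of all tested genes were called. In siACLY 5 were called, CDKN1A higher and CCND1, CCNE2, CDKN2C and CDKN2D lower, where 36.7% of all genes were called. In siACO1 6 were called, with CCND3, CDKN1B, CDKN1C, CDKN2C and CDKN2D higher and CCNE1 lower, where 37.1% of all genes were called. The median log2 fold change of the 10 members was -0.08 in siSLC25A1, -0.06 in siACLY and 0.15 in siACO1, beside medians of all genes of -0.00448, 0.00769 and 0.00632. Without siACO1 replicate 3 all 6 calls of siACO1 held. The 3 comparisons share the siControl libraries. Because RNA was taken from all cells of a culture, a change within each cell and a change in the share of cells that hold a transcript cannot be told apart.

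**Figure D2:**
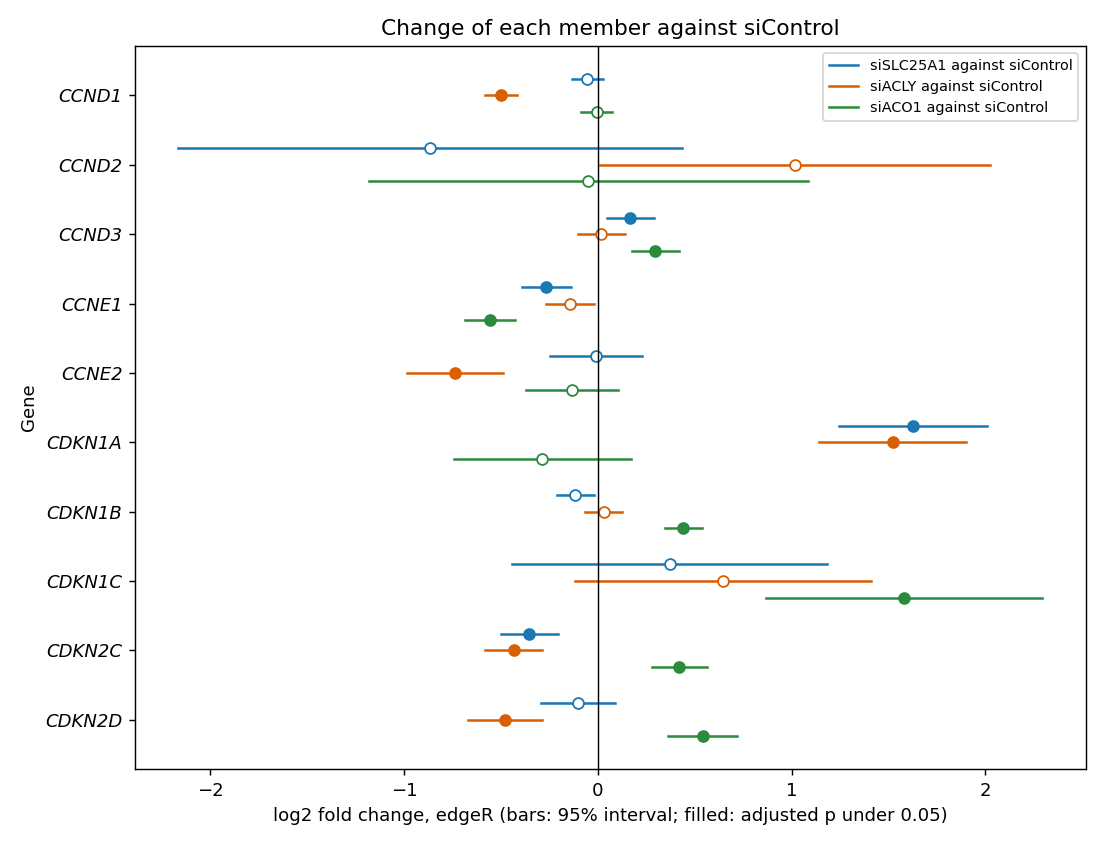
Log2 fold change of each gene against siControl (horizontal axis) in siSLC25A1, siACLY and siACO1, with 95% intervals as bars and filled points at an adjusted p under 0.05. CDKN1A lay at 1.63 and 1.52 in siSLC25A1 and siACLY and at -0.29 in siACO1, and CDKN2C lay at -0.35, -0.43 and 0.42 in the same order.

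Cyclin D1 fell in a single knockdown, that of ACLY. CCND1 (ENSG00000110092.4; chromosome 11, 69641087 to 69654474, plus strand; protein coding, GENCODE release 29 on GRCh38 as for all places given here) was at 325, 313 and 320.4 CPM in the siControl libraries and at 222, 231 and 225 CPM in the siACLY libraries. All 3 siACLY libraries lay below all 9 others, of which the lowest was at 300.2 CPM, and the fitted level was 70.7% of that in siControl (log2 fold change -0.50, SE 0.04, adjusted p 4.48e-11). In siSLC25A1 CCND1 was at 314, 308 and 300.2 CPM (log2 fold change -0.05, 95% interval -0.13 to 0.03, adjusted p 0.373). In siACO1 it was at 324, 326 and 304 CPM (log2 fold change -0.01, 95% interval -0.09 to 0.07, adjusted p 0.934), with the lowest value in replicate 3. Of the exon bases of CCND1, 10.3% overlap LTO1, a neighbouring gene, which was at 39.4 CPM in siControl and 35.04 CPM in siACLY. The share of CCND1 in the D-type sum per length was 80.9% to 82.6% in siACLY.

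Cyclin D3, which forms the same kinase complexes and is the D-type cyclin of many blood cells, rose where cyclin D1 did not pass the test. CCND3 (ENSG00000112576.13; chromosome 6, 41934933 to 42050357, minus strand) was at 58.3, 60.4 and 59.9 CPM in siControl and at 74.0, 69.3 and 76.3 CPM in siACO1. The 3 siACO1 libraries were above the 3 controls (log2 fold change 0.30, SE 0.06, adjusted p 0.000178). The siSLC25A1 libraries spread widely, at 74.2, 59.7 and 66.5 CPM, and overlapped the controls. The call in siSLC25A1 (log2 fold change 0.17, SE 0.06, adjusted p 0.0464) was marginal. It was lost without siSLC25A1 replicate 1, where the log2 fold change was 0.08 (adjusted p 0.387). It was also lost in the DESeq2 test and on leaving out each of 8 other libraries, where the log2 fold change was 0.15 to 0.18. In siACLY CCND3 was at 62.8, 58.2 and 59.6 CPM (log2 fold change 0.02, 95% interval -0.10 to 0.14, adjusted p 0.843).

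Cyclin D2 was close to the limit of detection. CCND2 (ENSG00000118971.9; chromosome 12, 4273772 to 4305350, plus strand) had 14, 11 and 4 counts in siControl, 1, 5 and 6 in siSLC25A1, 16, 10 and 28 in siACLY and 8, 7 and 9 in siACO1. None of the comparisons with siControl was called, with log2 fold changes of -0.87 (95% interval -2.16 to 0.43), 1.02 (0.01 to 2.02) and -0.05 (-1.18 to 1.08) in the order of siSLC25A1, siACLY and siACO1. These intervals are wide enough to hold several-fold changes of this transcript.

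The E-type cyclins were called in different knockdowns, CCNE1 in siSLC25A1 and siACO1 and CCNE2 in siACLY. CCNE1 (ENSG00000105173.14; chromosome 19, 29811898 to 29824308, plus strand), which drives CDK2 at the G1 to S transition and is itself an E2F target, was at 39.4, 38.3 and 39.2 CPM in siControl. In siACO1 it was at 25.8, 24.9 and 28.9 CPM, 68.1% of the siControl level (log2 fold change -0.55, SE 0.06, adjusted p 3.59e-08). In siSLC25A1 it was at 32.2, 34.4 and 30.7 CPM, 83.2% of the siControl level (log2 fold change -0.26, SE 0.06, adjusted p 0.00247). In siACLY all 3 libraries, at 33.7, 36.2 and 36.3 CPM, also lay below the controls, but the difference was not called (log2 fold change -0.14, SE 0.06, 95% interval -0.27 to -0.02, adjusted p 0.0698). It was called without siACO1 replicate 3 (adjusted p 0.0251) and when siACLY and siControl were fitted alone (adjusted p 0.0196). The controls were thus above every library of the other groups, and siACO1 was below all of them.

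CCNE2 (ENSG00000175305.18; chromosome 8, 94879770 to 94896678, minus strand), the second E-type cyclin, showed another order. It was at 7.86, 9.95 and 7.29 CPM in siControl and at 5.30, 5.39 and 4.35 CPM in siACLY, with no overlap of the libraries (log2 fold change -0.74, SE 0.12, adjusted p 1.58e-05). In siSLC25A1 it was at 8.47, 8.77 and 7.79 CPM (log2 fold change -0.01, 95% interval -0.25 to 0.23) and in siACO1 at 7.56, 7.60 and 7.83 CPM (log2 fold change -0.13, 95% interval -0.37 to 0.10), and neither was called. The count of CCNE2 is uncertain, since 37.1% of its exon bases overlap INTS8 and AC087752.4, and the strand setting of the counting is not given in the sources used here. INTS8 was called lower in all 3 knockdowns, with log2 fold changes of -0.19 in siSLC25A1, -0.19 in siACLY and -0.22 in siACO1. The share of CCNE1 in the E-type sum per length was 91.6% to 93.5% in siACLY and 85.0% to 86.4% in siACO1.

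**Figure D3:**
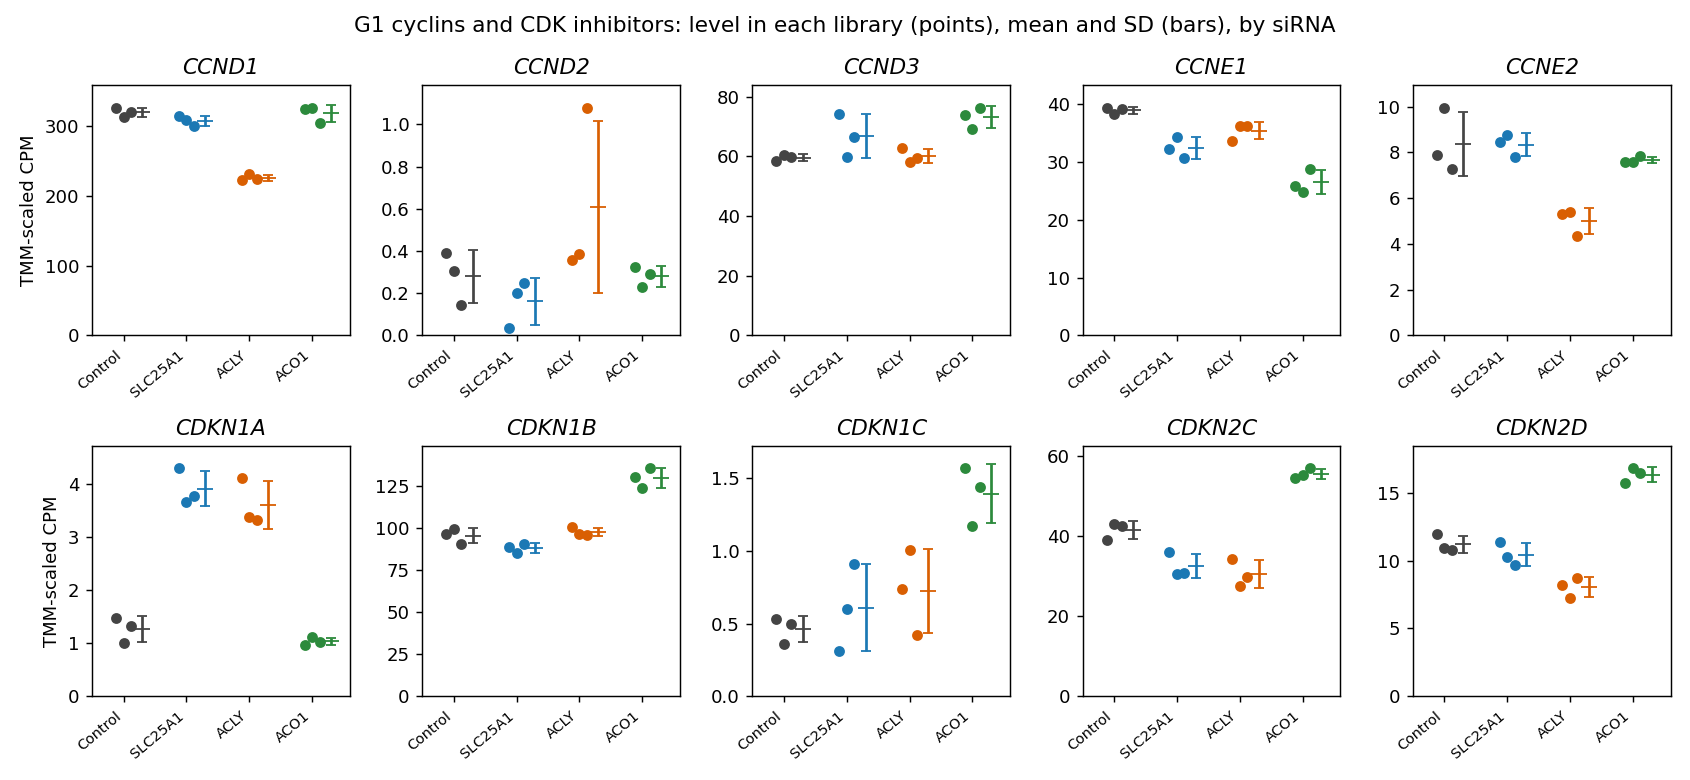
TMM-scaled CPM of each of the 10 genes (vertical axes from 0, a separate scale for each gene) in the 3 libraries of each siRNA group, with the mean and SD beside the points. CDKN1A was at 3.31 to 4.29 CPM in the siSLC25A1 and siACLY libraries and at 0.965 to 1.48 CPM in the siControl and siACO1 libraries.

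CDKN1A had the largest called change against siControl of the 10 members, and it was shared by the knockdowns of SLC25A1 and ACLY. CDKN1A (ENSG00000124762.14; chromosome 6, 36676460 to 36687339, plus strand), which encodes p21, had 53, 36 and 37 counts in siControl, or 1.48, 0.998 and 1.32 CPM. In siSLC25A1 it had 123, 91 and 91 counts, or 4.29, 3.66 and 3.77 CPM, 3.09-fold the siControl level (log2 fold change 1.63, SE 0.19, adjusted p 1.46e-07). In siACLY it had 183, 87 and 86 counts, or 4.11, 3.37 and 3.31 CPM, 2.87-fold the siControl level (log2 fold change 1.52, SE 0.18, adjusted p 1.43e-07). Each of these 6 libraries lay above every control and every siACO1 library. In siACO1 it had 24, 34 and 32 counts, or 0.965, 1.104 and 1.03 CPM, within and just below the controls (log2 fold change -0.29, 95% interval -0.74 to 0.17, adjusted p 0.342). Even after the rise CDKN1A stayed a minor transcript, at 3.65% to 4.25% of the CIP/KIP sum per length in siSLC25A1 and at 3.07% to 3.61% in siACLY.

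CDKN1B, the main CIP/KIP transcript of these cells, rose in the knockdown of ACO1. CDKN1B (ENSG00000111276.12; chromosome 12, 12715058 to 12722371, plus strand), which encodes p27, was at 96.6, 99.4 and 90.4 CPM in siControl and at 130.3, 124 and 135 CPM in siACO1. The siACO1 libraries were above all 9 others (136% of the siControl level, log2 fold change 0.44, SE 0.05, adjusted p 7.94e-09). In siSLC25A1 it was at 88.7, 85.1 and 90.7 CPM, overlapping the controls (log2 fold change -0.12, 95% interval -0.21 to -0.02, adjusted p 0.0842). This difference was called in 3 of 19 alternative settings. In siACLY it was at 100.4, 96.3 and 96.1 CPM (log2 fold change 0.03, 95% interval -0.06 to 0.13, adjusted p 0.634).

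CDKN1C (ENSG00000129757.15; chromosome 11, 2883213 to 2885773, minus strand), which encodes p57 and is expressed from the maternal copy in most tissues, was rare and rose in the same knockdown. It had 19, 13 and 14 counts in siControl and 39, 36 and 45 counts in siACO1, or 0.53, 0.36 and 0.50 CPM against 1.57, 1.17 and 1.44 CPM. The groups did not overlap (log2 fold change 1.58, 2.99-fold, SE 0.35, adjusted p 0.000582). Counts of 9, 15 and 22 in siSLC25A1 and of 33, 26 and 11 in siACLY overlapped the controls, and neither comparison was called (log2 fold changes 0.37, 95% interval -0.44 to 1.18, and 0.65, -0.12 to 1.41).

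The INK4 genes went in opposite directions in the knockdowns of ACLY and ACO1. CDKN2C (ENSG00000123080.12; chromosome 1, 50960745 to 50974633, plus strand), which encodes p18, was at 39.0, 43.0 and 42.5 CPM in siControl. It was at 35.9, 30.5 and 30.9 CPM in siSLC25A1 (78.3% of the siControl level, log2 fold change -0.35, SE 0.07, adjusted p 0.000645) and at 34.3, 27.4 and 29.7 CPM in siACLY (74.0% of the siControl level, log2 fold change -0.43, SE 0.07, adjusted p 2e-05). In siACO1 it was at 54.4, 55.3 and 56.9 CPM (134% of the siControl level, log2 fold change 0.42, SE 0.07, adjusted p 1.72e-05). The libraries of siSLC25A1 and siACLY lay below every control and those of siACO1 above every control. CDKN2C was the only one of the 10 members called in all 3 comparisons with siControl. The share of all tested genes called in all 3 was not computed, so this count has no general rate beside it.

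CDKN2D (ENSG00000129355.7; chromosome 19, 10566462 to 10569059, minus strand), which encodes p19, was at 11.9, 10.9 and 10.8 CPM in siControl. It fell to 8.22, 7.21 and 8.71 CPM in siACLY (71.8% of the siControl level, log2 fold change -0.48, SE 0.09, adjusted p 0.000169) and rose to 15.7, 16.8 and 16.5 CPM in siACO1 (145% of the siControl level, log2 fold change 0.54, SE 0.09, adjusted p 1.32e-05). In siSLC25A1 it was at 11.4, 10.3 and 9.65 CPM and overlapped the controls (log2 fold change -0.10, 95% interval -0.29 to 0.09, adjusted p 0.496). The summed INK4 level per length was between 19.7 and 20.2 CPM per kilobase in siControl, 13.1 and 15.8 in siACLY, and 26.9 and 28.1 in siACO1. CDKN2A and CDKN2B, the other INK4 genes, had 0 counts in all 12 libraries, which allows between 0.0674 and 0.124 CPM in a library (3 counts, counting error only).

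The differences between knockdowns were tested directly, in comparisons that do not use the siControl libraries in the contrast. The siACLY and siACO1 libraries differed in 9 of the 10 members, where 42.1% of all genes differed, with CCNE1 and CDKN1A higher in siACLY and CCND1, CCND3, CCNE2, CDKN1B, CDKN1C, CDKN2C and CDKN2D higher in siACO1. CCND2 was not called in that pair (log2 fold change 1.07, 95% interval 0.03 to 2.11, adjusted p 0.0937). The siSLC25A1 and siACO1 libraries differed in 6 members, where also 42.1% of all genes differed, with CDKN1A and CCNE1 higher in siSLC25A1 and the 4 inhibitors CDKN1B, CDKN1C, CDKN2C and CDKN2D higher in siACO1. The siSLC25A1 and siACLY libraries differed in 5 members, where 33.8% of all genes differed, with CCND1, CCNE2 and CDKN2D higher in siSLC25A1 and CCND2 and CDKN1B higher in siACLY.

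CDKN1A was 3.77-fold higher in siSLC25A1 than in siACO1 (log2 fold change 1.91, SE 0.20, adjusted p 4.32e-09) and 3.50-fold higher in siACLY than in siACO1 (1.81, SE 0.20, adjusted p 1.08e-08). Between siSLC25A1 and siACLY its log2 difference was 0.11, with a 95% interval of -0.23 to 0.44 (adjusted p 0.665). CDKN2D was at 49.4% of its siACO1 level in siACLY (log2 fold change -1.02, SE 0.09, adjusted p 3.05e-10) and CDKN2C at 55.3% (-0.86, SE 0.07, adjusted p 1.29e-10). CCND1 in siACLY was at 71.0% of siACO1 (log2 fold change -0.49, SE 0.04, adjusted p 2.83e-11), and it was 1.36-fold higher in siSLC25A1 than in siACLY (0.45, SE 0.04, adjusted p 6.12e-10). The E-type cyclins differed in opposite directions between this pair, with CCNE1 1.33-fold higher in siACLY than in siACO1 and CCNE2 at 65.8% (log2 fold changes 0.41 and -0.60, adjusted p 4.21e-06 and 0.0002).

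Several calls between knockdowns were lost when single libraries were left out. CCND2 was lower in siSLC25A1 than in siACLY (log2 fold change -1.88, SE 0.58, adjusted p 0.012), but it was not called without siSLC25A1 replicate 1 (-1.37, adjusted p 0.0938) or without siACLY replicate 3 (-1.23, adjusted p 0.151). CDKN1B was 90.3% of its siACLY level in siSLC25A1 (log2 fold change -0.15, adjusted p 0.0155) and was not called without siSLC25A1 replicate 2 (-0.12, adjusted p 0.104) or siACLY replicate 1 (-0.12, adjusted p 0.105). The difference of CDKN1C between siACLY and siACO1 (log2 fold change -0.93, adjusted p 0.0231) was lost without siACLY replicate 1 (-0.96, adjusted p 0.0574), siACLY replicate 3 (-0.70, adjusted p 0.117) or siACO1 replicate 1 (-0.85, adjusted p 0.0721). That between siSLC25A1 and siACO1 (-1.21, adjusted p 0.00597) was lost without siSLC25A1 replicate 1 (-0.87, adjusted p 0.0572).

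**Figure D4:**
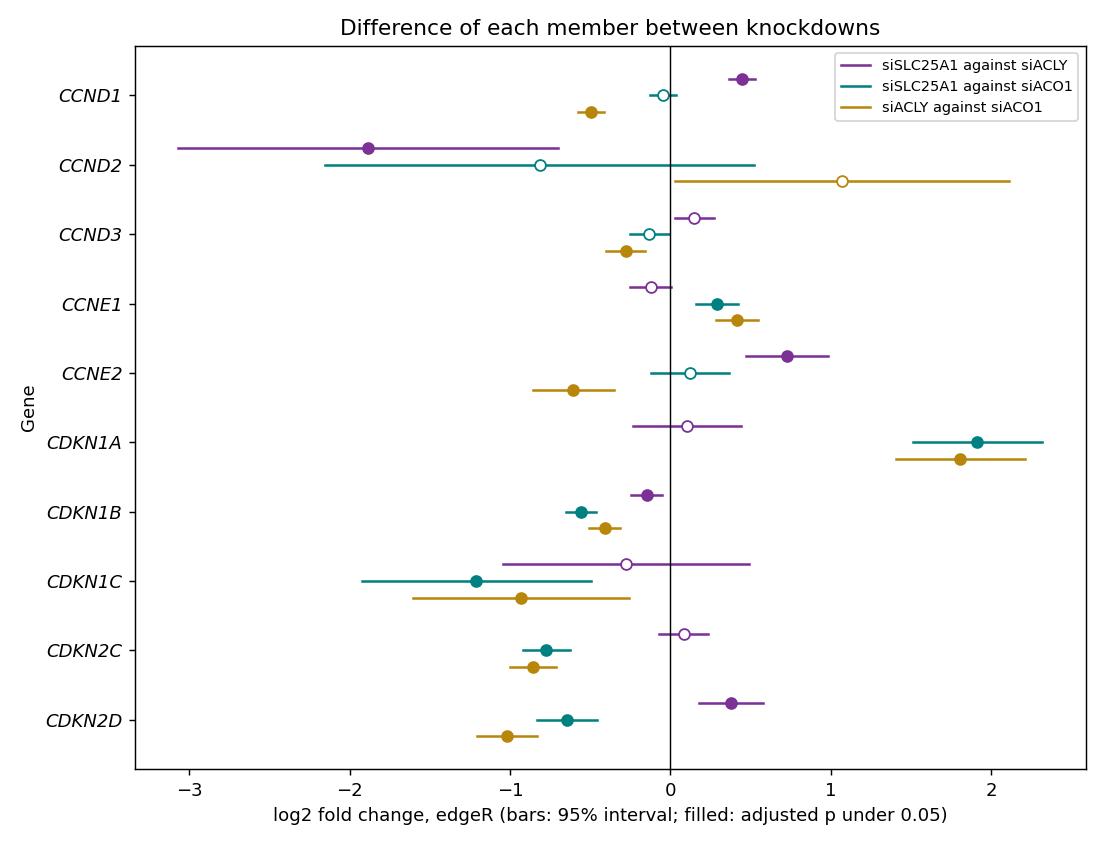
Log2 fold change of each gene between knockdowns (horizontal axis, first-named group over second), with 95% intervals as bars and filled points at an adjusted p under 0.05. All 4 inhibitors other than CDKN1A were lower in siSLC25A1 and in siACLY than in siACO1, and CDKN1A was higher.

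The partners of these genes were described from lists of known roles. Of 22 tested genes among 24 G1 kinases, RB family members, E2F factors and their cofactors, 4 were called higher and 3 lower in siSLC25A1, 3 higher and 12 lower in siACLY, and 4 higher and 5 lower in siACO1, with median log2 fold changes of 0.02, -0.15 and -0.02. Over all tested genes 10.3% were called higher and 9.27% lower in siSLC25A1, 18.4% and 18.3% in siACLY, and 17.8% and 19.3% in siACO1, so the counts of this list in siACO1 were near the shares over all genes. CDK2, the kinase of E-type cyclins, went from 50.6 CPM in siControl to 41.9 in siSLC25A1 (log2 fold change -0.27, adjusted p 0.00245) and 39.3 in siACLY (-0.36, adjusted p 4.18e-05), and was at 46.9 in siACO1 (-0.11, adjusted p 0.178). CDK6, a kinase of D-type cyclins, rose in siSLC25A1 (0.18, adjusted p 0.0127), fell in siACLY (-0.35, adjusted p 4.38e-06) and was at 93.0 CPM in siACO1 against 93.9 in siControl. CDK4, the other such kinase, rose by 0.18 in siACO1 (adjusted p 0.000781) and by 0.10 in siACLY (adjusted p 0.0496), but 43.2% of its exon bases overlap TSPAN31 and its count is uncertain. RB1 rose by 0.30 in siSLC25A1 (adjusted p 1.59e-05) and by 0.14 in siACO1 (adjusted p 0.0176).

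E2F1, an E2F factor that activates S phase genes, moved in both directions. It was at 92.1 CPM in siControl, 109 in siSLC25A1 (log2 fold change 0.24, adjusted p 0.00211), 63.4 in siACLY (-0.54, adjusted p 1.87e-08) and 68.5 in siACO1 (-0.43, adjusted p 7.19e-07). TFDP1, a dimer partner of E2F factors, fell in siSLC25A1 from 207 to 136 CPM (-0.60, adjusted p 1.14e-11). It also fell in siACLY, to 180 CPM (-0.21, adjusted p 0.000299). E2F8 fell by 0.60 on the log2 scale in siACLY, where E2F5 and CCNH rose by 0.35 and 0.28; the count of CCNH is uncertain because of overlapping genes. In siACO1 E2F7 rose by 0.54, and CABLES1, a CDK-binding protein, fell from 6.74 to 2.71 CPM (-1.32, adjusted p 6.61e-08). CDC25A, the phosphatase that activates CDK2, fell by 0.19 in siSLC25A1 and by 0.45 in siACLY, and was at 34.4 CPM in siACO1 against 35.1 in siControl.

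Among 21 genes for the breakdown of G1 cyclins and inhibitors, 0 were called higher and 1 lower in siSLC25A1, 3 higher and 5 lower in siACLY, and 5 higher and 5 lower in siACO1, with medians of 0.01, -0.03 and 0.01. Beside the 19.6%, 36.7% and 37.1% of all genes called in these comparisons, the count in siACLY was near the general rate. The gene called in siSLC25A1 was the ubiquitin ligase scaffold CUL4B (-0.19, adjusted p 0.00114), which also fell in siACO1 (-0.30, adjusted p 1.49e-06). SKP2, which directs the breakdown of p27, went from 82.7 CPM to 107 in siACO1 (log2 fold change 0.38, adjusted p 2.8e-07), in the same libraries in which CDKN1B mRNA rose, and to 73.5 in siACLY (-0.17, adjusted p 0.00631). AMBRA1, which directs the breakdown of D-type cyclins, fell by 0.35 in siACO1 (adjusted p 4.81e-07) and rose by 0.17 in siACLY (adjusted p 0.00358). FBXL2 rose by 0.45 in siACLY and by 0.48 in siACO1. In siACLY UBE2D1 also rose, by 0.19, while SKP1 and DTL fell by 0.35 and 0.31.

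**Figure D5:**
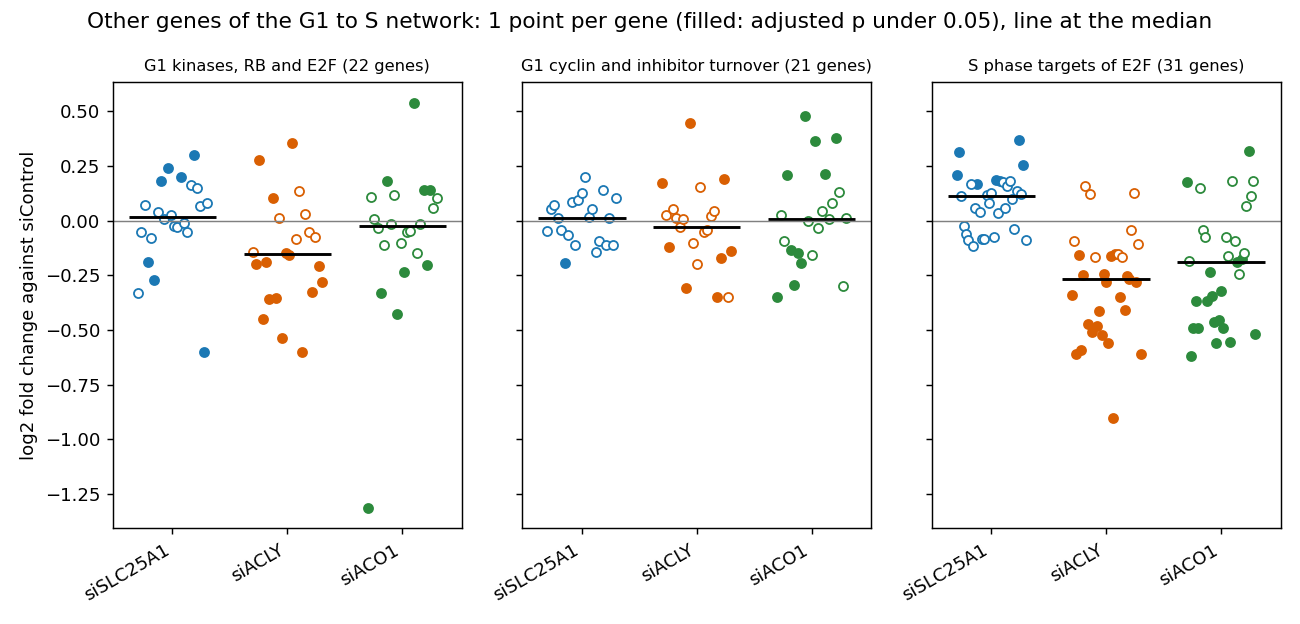
Log2 fold change against siControl (vertical axis) of the tested genes of 3 lists in each knockdown, 1 point per gene, filled at an adjusted p under 0.05, with a line at the median. Of the 31 S phase genes 22 were called lower in siACLY (18.3% of all genes), 16 lower in siACO1 (19.3%), and 7 higher and 0 lower in siSLC25A1 (10.3% and 9.27%).

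Among the S phase genes that E2F factors activate, those called were higher in siSLC25A1, lower in siACLY and mostly lower in siACO1. Of 31 tested genes 7 were higher and 0 lower in siSLC25A1, 0 higher and 22 lower in siACLY, and 2 higher and 16 lower in siACO1, and the medians of 0.11, -0.27 and -0.19 stood beside medians near 0 for all genes. Of all tested genes 10.3% were called higher in siSLC25A1, 18.3% lower in siACLY and 19.3% lower in siACO1. PCNA, the sliding clamp of DNA polymerase, fell from 192 to 102 CPM in siACLY (log2 fold change -0.90, adjusted p 4.18e-08) and was at 172 CPM in siACO1 (-0.16, adjusted p 0.0791). CDC6, which loads the replicative helicase, was at 57.9 CPM in siACLY and 57.8 in siACO1 against 88.7 in siControl. MCM5, a helicase subunit, fell by 0.56 in siACO1 (adjusted p 2.58e-05) and by 0.52 in siACLY (adjusted p 5.18e-05). CCNA2, the S phase cyclin that follows E-type cyclins, rose by 0.18 in siACO1 (adjusted p 0.00616) and by 0.21 in siSLC25A1 (adjusted p 0.00344). It fell by 0.34 in siACLY (adjusted p 4.63e-06). RRM2, a subunit of ribonucleotide reductase, rose by 0.37 in siSLC25A1 and by 0.32 in siACO1, and CDC45 rose by 0.32 in siSLC25A1. UHRF1 fell by 0.61 in siACLY, and was at 177 CPM in siACO1 against 254 in siControl. The counts of RRM2 (20.2% of exon bases overlapping) and UHRF1 (27.3% of its 31-base words shared with another gene) are uncertain. In siSLC25A1 the S phase genes that were called rose while CDKN1A rose and CCNE1 fell. Within its group, replicate 1 of siSLC25A1 stood highest for nearly all of the 31 S phase genes, ORC6 being an exception. It was at 177 CPM for MCM5, beside 144 and 145, and at 222 for PCNA, beside 187 and 181. For PCNA those other libraries lay within or below the 185 to 201 CPM of siControl. For MCM7 replicate 1 was at 647 CPM, beside 527 and 533, with 515 to 527 in siControl. MCM5 was at 139 to 148 CPM in siControl and was not called in siSLC25A1 (adjusted p 0.310). For CDC45 and CCNA2, which were among the 7 called, all 3 siSLC25A1 libraries lay above the controls. Replicate 1 was again the highest, at 63.3 CPM beside 58.3 and 55.8 for CDC45 and at 128 beside 113 and 111 for CCNA2. The median of the list without this replicate was not computed.

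The genes whose levels followed those of CCNE2 and CDKN1A, the cyclin and the inhibitor with the largest called change against siControl, were looked up among 9905 genes whose mean reached 5 CPM. Over the 12 libraries the log2 CPM of CDKN1A had its highest Pearson correlations with PORCN (r = 0.983), DNMBP (r = 0.980) and SMARCD1 (r = 0.978), as a description over libraries that share groups. PORCN went from 55.6 CPM in siControl to 105 in siSLC25A1, 99.96 in siACLY and 48.8 in siACO1. For CCNE2 the closest were EZH2 (r = 0.965), HSPA14 (r = 0.959) and ZNF367 (r = 0.951). ZNF367 went from 53.3 CPM in siControl to 33.4 in siACLY, and was at 58.7 in siSLC25A1 and 52.5 in siACO1.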

How the data were processed

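The authors deposited raw read counts per gene for 12 libraries, per the file headers and the values. Per the submitters' processing notes, CASAVA, FastQC, Trim Galore, STAR 2.7.0e and DESeq2 were used, with the builds GRCm39 and GRCh38 named in no stated role; the counting tool, annotation and strand setting are not given in the sources used here. Of 70116 Ensembl identifiers 62700 (89.4%) had a symbol.

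Counts passing filterByExpr were scaled by TMM, and a robust quasi-likelihood model of the 4 groups with no block was fitted in edgeR 4.0.16 under R 4.3.3 (8 residual degrees of freedom). F tests of 6 comparisons were each adjusted by Benjamini-Hochberg over 16197 genes, and all fold changes and adjusted p-values are from edgeR unless another tool is named. SEs were derived as the absolute log2 fold change divided by the square root of the F statistic. The 95% intervals (not adjusted for multiple tests) were built from these SEs with a t distribution, so both are approximate. The scripts were tested on simulated counts. Alternatives were other scalings and filters, DESeq2 1.42.0, fits of 2 groups alone, a replicate block, a minimum log2 fold change of 0.5, and leaving out each library.

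The members and lists were chosen with earlier results of these data known. Named genes were the 10 members, the 3 targets, CDK2, CDK4, CDK6, RB1, E2F1, SKP2, CDC25A, CDKN2A and CDKN2B, the 2 largest called rises and falls per list and knockdown, and the 3 genes closest to the cyclin and the inhibitor most changed against siControl. Counts are called uncertain where at least 20% of exon bases overlap another gene, or 20% of 31-base words are shared, in GENCODE release 29. The results of 1 further gene list are not reported here.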

Additional observations from a re-analysis of the deposited data

How the results depend on the processing

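Apart from the minimum fold change, 19 alternatives were run. Of the 35 called differences of members over the 6 comparisons, 30 kept their call and direction under each that gave a value. The other 5 lost their call under at least 1, and 0 reversed. For CDKN1C in siACO1 against siControl, a call that was kept, 18 alternatives gave a value. Of the 25 differences not called, 6 gained a call and 8 changed sign under at least 1 alternative. With a minimum absolute log2 fold change of 0.5 the number of members called was 1 in siSLC25A1, 2 in siACLY and 3 in siACO1 against siControl, beside 4.27%, 11.4% and 11.3% of all genes. It was 2 between siSLC25A1 and siACLY, 5 between siSLC25A1 and siACO1 and 5 between siACLY and siACO1, beside 9.6%, 15.2% and 15% of all genes.

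The sign changes were all in differences that were not called, and their cause was not tested. For CCND1 in siACO1 the log2 fold change was 0.044 with library totals and 0.0036 with at least 10 counts in every library, and -0.026 to 0.024 on leaving out single libraries. Leaving out single libraries gave -0.095 to 0.14 for CCNE2 and -0.033 to 0.71 for CDKN1C in siSLC25A1, -0.022 to 0.035 for CCND3 and -0.011 to 0.060 for CDKN1B in siACLY, and -0.33 to 0.26 for CCND2 and -0.22 to 0.013 for CCNE2 in siACO1. Between siSLC25A1 and siACLY it gave -0.68 to 0.060 for CDKN1C.

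The labels give no pairing of replicate numbers across groups. Deviations of same-numbered libraries correlated at -0.03 to 0.06 over 18 pairs, and those of other pairs between groups at -0.07 to 0.06. Of 12 libraries 7 correlated best with their own number. Correlations this small cannot decide whether libraries of the same number were handled together. With a replicate block 2 calls were added, CCND3 between siSLC25A1 and siACLY (log2 fold change 0.15, adjusted p 0.0362) and between siSLC25A1 and siACO1 (-0.13, adjusted p 0.0488), and no member call was lost. Low counts limit CCND2, CDKN1C and CDKN1A most; the filter of at least 10 counts in every library removed CCND2 and CDKN1C.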
